A study of Mus musculus with 2 samples.

Results

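The mammalian genes for protein arginine methyltransferases (PRMTs) were followed in mouse embryonic stem cells with and without forced expression of the reprogramming factors. The set held 8 genes, Prmt1, Prmt2, Prmt3, Prmt5, Prmt6, Prmt7, Prmt8 and Carm1, out of 19938 genes measured, and a gene belonged to it by its symbol in the platform annotation. The family was chosen by the large measured difference of Prmt8 between these arrays, so that difference is given as a description. Each of the 8 genes was read by 1 probeset, a group of probes summarised into 1 value, and 0 probesets shared by several genes named any of them.

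The cells were i-OSKM-ESC, embryonic stem cells of strain 129 engineered from the KH2 line so that doxycycline switches on Klf4, c-Myc, Oct4 and a Sox2 with an epitope tag. The plus doxycycline cells received the drug at 4 µg/mL for 24 hours, and the no doxycycline cells were refed medium without it. Both groups carry the transgenes and grew on gelatin. Each group is 1 array of labelled cDNA from total RNA, so no value has a replicate error, no test between the groups was possible, and an action of doxycycline itself cannot be told apart from that of the factors.

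PRMTs transfer methyl groups from S-adenosylmethionine to arginines of histones, RNA-binding proteins and signalling proteins. Type I enzymes (Prmt1, Prmt2, Prmt3, Carm1, Prmt6 and Prmt8) leave asymmetric dimethylarginine, the type II enzyme Prmt5 leaves symmetric dimethylarginine, and the type III enzyme Prmt7 stops at monomethylarginine. Prmt8 is the closest relative of Prmt1 and differs from it by an N-terminal extension that is myristoylated and holds the protein at the plasma membrane. It is best known from neurons, and its expression has also been reported in pluripotent stem cells, where Sox2 was described as a modulator of it.

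The promoters of Prmt8 and Prmt1 are shown because they belong to these close relatives, whose values differed so unequally, and because the induced proteins bind DNA. The letters are the 250 bases before an annotated start site on the minus strand, from RefSeq in build GRCm38.p6, and 7 of the 8 genes had such an entry. Capitals mark a match on either strand to CCACCC, a core of Krüppel-like factor sites, or to CACGTG, the E-box bound by Myc.
Prmt8, chr6:127769156-127769405: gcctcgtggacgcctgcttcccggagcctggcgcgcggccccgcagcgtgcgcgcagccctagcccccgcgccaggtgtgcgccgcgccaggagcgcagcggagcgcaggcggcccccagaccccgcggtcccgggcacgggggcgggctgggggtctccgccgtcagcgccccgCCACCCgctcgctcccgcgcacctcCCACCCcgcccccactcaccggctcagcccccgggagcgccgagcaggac
Prmt1, chr7:44986421-44986670: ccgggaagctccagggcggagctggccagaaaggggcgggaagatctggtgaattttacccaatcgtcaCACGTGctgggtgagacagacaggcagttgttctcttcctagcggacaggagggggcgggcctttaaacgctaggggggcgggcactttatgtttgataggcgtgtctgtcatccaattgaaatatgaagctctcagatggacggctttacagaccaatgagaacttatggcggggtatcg

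The Prmt8 window was 82% G and C with 37 CpG dinucleotides, against 54.8% and 13 for Prmt1, and the windows of the other members lay between 54% and 70%. The median of all 32841 such windows was 52.4%, and 0.652% of them were at least as rich in G and C as that of Prmt8. The window of Prmt8 held 2 copies of CCACCC and that of Prmt7 held 1, and 28.1% of all windows had at least 1 and 7.06% at least 2. Among the 1285 windows with 75% G and C or more, 11.4% had at least 2. CACGTG was found once each for Prmt1 and Prmt3, against 6.02% of all windows. Neither the octamer ATGCAAAT of Oct4, present in 1.60% of windows, nor the Sox core ACAATG, present in 10.7%, was found in any of the members' windows. All 4 motifs were searched on both strands, and none overlapped another in these windows. These matches describe letters and not bound sites, and a second annotated start of Prmt8, 4 bases away, gave the same counts.

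Prmt8 was the only member that differed at least 2-fold. Its log2 value was 5.60 in plus doxycycline cells and 7.37 in no doxycycline cells, a difference of -1.77 or 3.42-fold. Of the 11191 genes passing the expression filter, meaning that the higher value reached the table median of 6.48, 8 had a more negative difference and 17 a larger difference in either direction. Among the 3515 genes whose mean level lay within 0.5 of that of Prmt8, 4 had a more negative difference.

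The plus doxycycline value of Prmt8 lay below the filter, while its no doxycycline value stood 0.89 above it. Near the bottom of the scale, background makes up much of the signal, and the table has no detection call, so it cannot be said how much Prmt8 transcript was left in plus doxycycline cells. With 32 added to each linear signal, an offset that damps dim signals, the difference was -1.30. Prmt8 was not counted when both values had to reach the filter, or when the higher one had to reach the 75th percentile of the table.

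**Figure D1:**
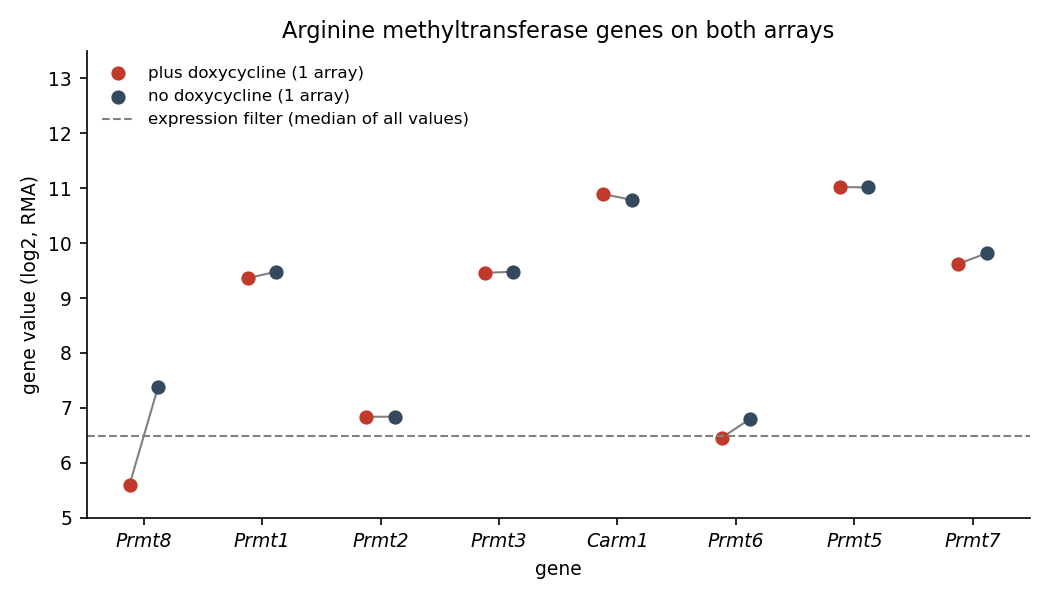
The log2 RMA value (vertical axis) of each arginine methyltransferase gene (horizontal axis) in plus doxycycline cells (red, left) and no doxycycline cells (dark, right), 1 array each, with lines joining the pair and a dashed line at the filter of 6.48. Prmt8 stands at 5.60 against 7.37, and the pairs of the other 7 genes are at most 0.34 apart.

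The other type I genes stayed under 2-fold. Prmt1, the main source of asymmetric dimethylarginine in most cells, had 9.36 in plus doxycycline cells and 9.48 in no doxycycline cells, a difference of -0.12. Of the 11191 genes passing the filter, 62% had a larger difference, so the close relative of Prmt8 lay among the less changed genes of these arrays. Prmt3, a cytosolic enzyme that methylates the ribosomal protein Rps2, had 9.46 against 9.48 (difference -0.02).

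Prmt2, which acts as a coactivator of nuclear receptors, had 6.84 in both (difference -0.0008). It was the least changed member, and its level lay close to the filter. Carm1, which methylates histone H3 at promoters and enhancers and has been linked to pluripotency in the early mouse embryo, had 10.89 in plus doxycycline cells and 10.79 in no doxycycline cells. Its difference of 0.11 was the highest of the 8.

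Prmt6, which methylates an arginine near the lysine of histone H3 that marks active promoters, came after Prmt8 in size. Its value was 6.46 in plus doxycycline cells and 6.80 in no doxycycline cells, a difference of -0.34 or 1.27-fold. Among all genes passing the filter, 21.6% had a larger difference, so this size was common. The plus doxycycline value of Prmt6 lay just below the filter.

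Among the enzymes of other types, Prmt5 had 11.02 in plus doxycycline cells and 11.01 in no doxycycline cells (difference 0.0072). Prmt5 acts with Wdr77 and is needed in mouse embryonic stem cells. Prmt7 had 9.62 against 9.82, a difference of -0.19, and 44.5% of genes passing the filter had a larger one. Prmt9, a second type II gene outside the set of 8 and named after its value was seen, had 8.61 against 8.76 (difference -0.14).

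All 8 members passed the filter, and 1 of the 8 was called, meaning at least 2-fold apart, where 1.69% of the 11191 genes were called and 0.768% were called lower. The set was built around that gene, so nothing is read from this count. The median difference of the 8 was -0.07, beside -0.03 over all genes passing the filter. The 7 members other than Prmt8 had a median of -0.02 and ran from -0.34 to 0.11. Of these 7, 5 had a smaller absolute difference than the median gene passing the filter (0.169).

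The signs of the smallest differences depend on scaling. Prmt2 lay between -0.02 and 0.0058, Prmt3 between -0.02 and 0.02 and Prmt5 between -0.0028 and 0.0072 over the scalings tried, so no direction is given for these 3. The spread between differences of probesets for the same gene, measured on the 492 genes with 2 probesets passing the filter, was 0.167 (SD). It is a spread within these 2 arrays and not an error between cultures. As deposited, Prmt8, Prmt6 and Prmt7 exceeded it, and the other 5 did not. With a loess trend removed, Prmt7 had -0.158, which is under it.

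**Figure D2:**
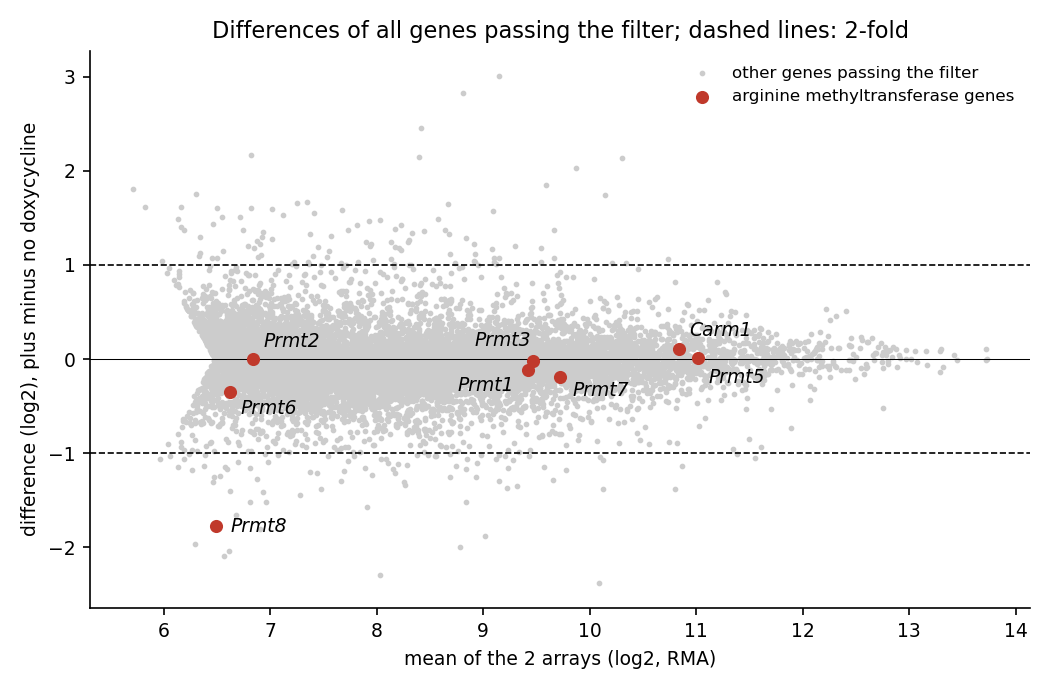
The log2 difference, plus minus no doxycycline (vertical axis), against the mean log2 value of the 2 arrays (horizontal axis) for the 11191 genes passing the filter (grey) and the 8 arginine methyltransferase genes (red), with dashed lines at 2-fold. Prmt8 lies at -1.77 beneath the cloud, while the other 7 lie within it between -0.34 and 0.11.

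Genes whose proteins work with PRMTs came next. Of 16 measured partner genes, all passing the filter, 0 were called, where 1.69% of all genes passing were. Their median was -0.10, beside -0.03 over all genes passing the filter, and with quantile normalization it was -0.05 beside -0.004. Of the 16 differences, 13 were negative (12 with quantile normalization), against 55.5% of all genes passing the filter. The list includes Prmt9, given above. Ncoa1, a nuclear receptor coactivator that recruits Carm1, had 7.22 in plus doxycycline cells and 7.77 in no doxycycline cells (difference -0.55). Prdm14, a pluripotency regulator that has been reported to bind Carm1, had 6.92 against 7.46 (-0.54). The paralog Ncoa3 had a difference of -0.32, and Tob1, of the Btg family, some of whose members bind Prmt1, had -0.27. Of the same family, Btg1 had -0.17 and Btg2 had 0.24, both named after their values were seen. Named after their values were seen, the subunits that give Prmt5 its substrates differed little, with -0.02 for Wdr77, -0.03 for Clns1a, -0.09 for Riok1 and 0.04 for Coprs.

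The genes that act on methylated or unmodified arginine in other ways had positive differences throughout. This list holds the peptidylarginine deiminases, which turn protein arginine into citrulline, Jmjd6, which has been proposed to demethylate arginine, and the Ddah enzymes, which break down free methylarginines released from PRMT products. All 8 differences were positive, with a median of 0.39 over the 8 measured genes and 0.46 over the 5 passing the filter, beside 0.0083 over all genes measured. Over all genes measured, 48.3% of differences were negative.

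Ddah2 was the called member of that list, with 9.43 in plus doxycycline cells and 8.39 in no doxycycline cells, 2.06-fold higher, where 0.92% of genes passing the filter were called higher. It lay at the threshold, and with the offset of 32 its difference was 0.98, under 2-fold. Padi2, named after its value was seen, had 7.78 against 6.88 (difference 0.90). Padi4, named likewise, had 5.99 against 5.17 (0.82) with both values below the filter. Ddah1, also named after its value was seen, had 11.28 against 10.95 (0.32), and Jmjd6, named likewise, had a difference of 0.01. The 8 differences stayed positive under every scaling tried, but dim genes as a whole had slightly positive differences, with a median of up to 0.11 in bins of genes sorted by level, and 3 of the 8 lay below the filter.

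Proteins with Tudor domains read methylated arginine. Of 12 measured reader genes, 7 passed the filter and 0 were called, where 1.69% of all genes passing were. The median was 0.04 over the 12 and -0.09 over the 7. Tdrd5, a germ-cell protein of the piRNA pathway, had the largest difference among those passing, with 7.44 in plus doxycycline cells and 8.05 in no doxycycline cells (-0.61). The mitochondrial anchor Akap1 had -0.35, the histone reader Wdr5 0.23 and the splicing factor Smndc1 -0.18.

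Substrate genes were under 2-fold. Of 24 measured genes for RNA-binding proteins known to carry methylarginine, all passing the filter, 0 were called, where 1.69% of all genes passing were. Their median was -0.0091, beside -0.03 over all genes passing the filter. Differences of 19 of the 24 were smaller than the probeset spread of 0.167. Over all genes passing the filter, the median absolute difference was 0.169. Rbmx had -0.64, Coil, which organises Cajal bodies, -0.60, the cold-inducible protein gene Cirbp -0.33 and Serbp1 0.23.

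The enzymes that make and recycle the methyl donor were likewise under 2-fold. Of 9 measured genes 6 passed the filter and 0 were called, where 1.69% of all genes passing were. The median was -0.01 over the 9 and 0.11 over the 6, so the list has no settled direction. Mtr, methionine synthase, had 9.43 in plus doxycycline cells and 9.03 in no doxycycline cells (difference 0.40), and its reactivating enzyme Mtrr had 0.22. Mat2b, the regulatory subunit of S-adenosylmethionine synthetase, had 0.31, and the adenosine kinase gene Adk had -0.33. The catalytic subunit gene Mat2a and the gene Ahcy were not analysed here.

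**Figure D3:**
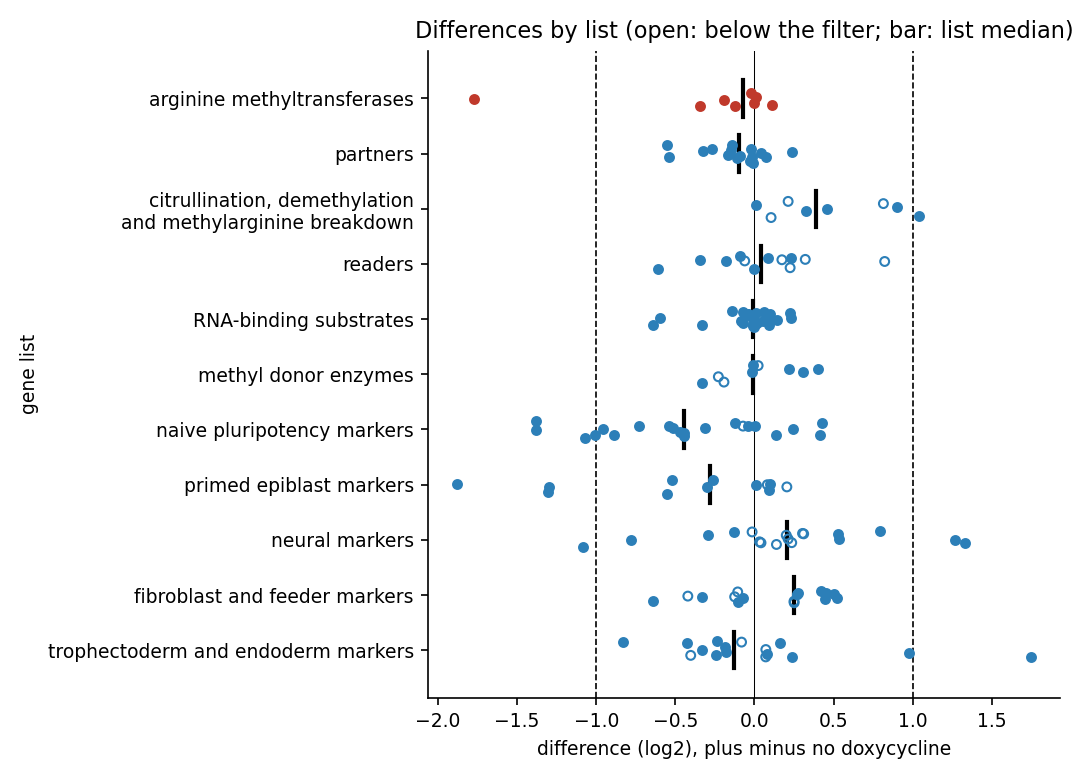
The log2 difference, plus minus no doxycycline (horizontal axis), of every measured gene in 11 lists (vertical axis), with filled points for genes passing the filter, open points for genes below it, a bar at each list's median and dashed lines at 2-fold. Prmt8 is the point at -1.77 in the top row, and all 8 points of the third row lie above 0.

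The difference of Prmt8 stood beside lower values of several stem cell genes. Both arrays carried the defining markers of embryonic stem cells, with Pou5f1 at 12.46 and 12.05 and Nanog, named after its value was seen, at 12.06 and 12.18 in plus and no doxycycline cells. Of 21 measured naive pluripotency markers, 20 passed the filter and 16 had negative differences. The median of the 21 was -0.44, beside 0.0083 over all genes measured, of which 48.3% were negative. Over the 20 passing, the median was -0.46, beside -0.03 over all genes passing the filter, of which 55.5% were negative. The summed linear signal of the 21 markers was 36727 in plus doxycycline cells and 48851 in no doxycycline cells. The 4 called members were all lower: Klf5 (-1.38), Klf2 (-1.38), Dppa2 (-1.07) and Sox2 (-1.01). Of all genes passing the filter, 0.768% were called lower. By its brighter probeset, Dppa2 had -0.75, under 2-fold, and with the offset of 32 Sox2 had -0.996.

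Sox2, one of the induced factors, had 10.88 in plus doxycycline cells and 11.89 in no doxycycline cells. The other induced factors had positive differences under 2-fold, 0.41 for Pou5f1, 0.43 for Klf4 and 0.35 for Myc. The labels do not say whether these probesets read the transgenes, so the factors do not check the labels of the arrays. In the primed epiblast list, 3 of the 10 members passing the filter were called, all lower: Dnmt3a (-1.88), Otx2 (-1.30) and Dnmt3l (-1.30), against the same 0.768%. Of the 12 measured genes of this list, 7 had negative and 5 had positive differences, with a median of -0.28. The list therefore did not all go one way. Otx2 had 5.81 in plus doxycycline cells and 7.11 in no doxycycline cells, so it passed the filter through the no doxycycline array alone, and with the offset it had -0.95.

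Markers of other cells did not all go one way. Since Prmt8 is best known from neurons, 18 neural markers were set beside it, and 9 passed the filter. Map2 and Tubb3, of the neuronal cytoskeleton, were 2-fold or more higher, with log2 differences of 1.33 and 1.27, and the neurogenic factor gene Neurod1 was lower (-1.08, or -0.94 with the offset). Of all genes passing the filter, 0.92% were called higher and 0.768% lower. The list's median was 0.21 over the 18 and 0.53 over the 9. Some of the 9 reached the filter only in plus doxycycline cells. Over members with both values at the filter the median was -0.13, so the list has no settled direction. Its summed signal was 7857 in plus doxycycline cells and 5823 in no doxycycline cells, or 2116 and 1841 without Stmn2, a gene named for its share of the sum. Of 16 fibroblast and feeder markers, 10 passed the filter and 0 were called, where 1.69% of all genes passing were. The median of these 16 markers was 0.25, beside 0.0083 over all genes measured. Of their differences 9 were positive and 7 negative, where 48.3% of all genes measured were negative. Dim genes as a whole had slightly positive differences, and over members passing the 75th percentile the median was -0.22. The summed signals of the 16 were 6047 and 6820 in plus and no doxycycline cells, or 2966 and 2938 without Fn1, named likewise. The largest differences among those passing were -0.64 for Zeb1, 0.52 for Fbln2, 0.50 for Col1a2 and 0.45 for Col5a1. Of 16 trophectoderm and endoderm markers, 12 passed and Krt8 was called higher (1.75), while the median was -0.13 and 9 of the 16 differences were negative. With quantile normalization or a loess trend removed, 2 were called. Over members with both values at the filter the median was 0.08, so this list has no settled direction either. The summed signals of the 16 were 4227 and 2675 in plus and no doxycycline cells, or 2153 and 2057 without Krt8. Whether a change in the mix of cells has a part in the value of Prmt8 was not tested, and fewer cells making a transcript cannot be told apart from less transcript per cell.

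The genes beside Prmt8 on chromosome 6 did not share its difference. Of the 5 measured genes on each side in the gene order of GRCm38.p6, 8 passed the filter and 0 were called. Among all genes passing, 1.69% were called, so 0 among so few says little. Of the 10 differences 8 were positive, where 48.3% of all genes measured had negative ones. The median of the 10 was 0.25, beside 0.0083 over all genes measured. On one side, the values were 0.19 for Cracr2a, 0.32 for Parp11, 0.15 for the cyclin gene Ccnd2, 0.60 for Tigar and 0.36 for Fgf23, of which Cracr2a and Fgf23 were below the filter. On the other, they were 0.31 for Tspan11, -0.43 for Tspan9, 0.98 for Tead4, -0.16 for Tulp3 and 0.06 for Rhno1.

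Tead4, which encodes a transcription factor of the trophectoderm, had 9.29 in plus doxycycline cells and 8.32 in no doxycycline cells. It stood just under 2-fold, and past it with quantile normalization (1.02) or a loess trend removed (1.04). Around the other 7 members, the medians of the 10 nearest measured genes ran from -0.20 for Prmt5 to 0.28 for Prmt6. Among those 70 positions, 1 gene was called, where 1.69% of all genes passing the filter were. It was Ajuba near Prmt5 (-1.07), which was named after its value was seen.

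**Figure D4:**
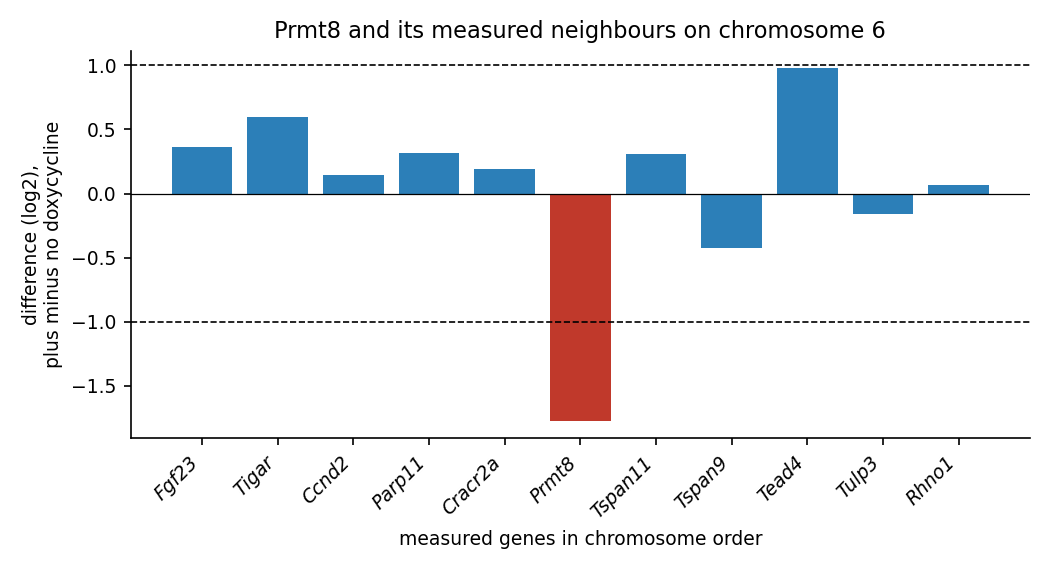
The log2 difference, plus minus no doxycycline (vertical axis), of Prmt8 (red) and of the 5 nearest measured genes on each side (blue) in their order on chromosome 6 (horizontal axis, not to scale in distance), with dashed lines at 2-fold. Prmt8 lies at -1.77 between neighbours that run from -0.43 to 0.98.

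The genes most like Prmt8 were sought by the distance between their pairs of log2 values and those of Prmt8, over the 2 arrays. The nearest 5 of the genes passing the filter were Mcf2 (5.52 in plus doxycycline cells against 7.61 in no doxycycline cells), Mir382 (5.59 against 7.64), Mir329 (5.86 against 7.51), Mir377 (5.31 against 7.27) and Zhx1 (5.92 against 7.32). All 5 were at least 2-fold lower, which the measure of likeness makes nearly certain. Mcf2 encodes a guanine nucleotide exchange factor, Zhx1 a zinc finger and homeobox protein, and the 3 microRNA genes belong to the imprinted Dlk1-Dio3 domain. Likeness over 2 arrays rests on a single difference per gene, and values of different probesets are not abundances on a common scale.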

How the data were processed

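Total RNA of 1 plus doxycycline and 1 no doxycycline sample was measured on whole-transcript arrays. The submitters' processing notes name Affymetrix Expression Console and RMA, which corrects background, equalises the arrays and summarises probesets. The deposited log2 values (35556 probesets, medians 6.49 and 6.47 in plus and no doxycycline samples) were used unchanged. RMA hides a change shared by most transcripts and compresses the fold changes of dim ones. Versions and genome build were not given in the sources used here.

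Of the probesets, 21789 had 1 gene in the platform annotation, 1621 had several and 12146 were not listed. A gene's value was the mean of its own probesets. Differences are plus minus no doxycycline. A gene was called when its higher value reached the table median and it differed at least 2-fold. These steps were tested on simulated data in which the changed genes lay well above the filter. Calls of genes near the filter, such as Prmt8, were not tested in this way. With 1 array per group, no p-value was computed.

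The members and the 10 other lists (158 genes, with Prdm14 in both the partner and the naive pluripotency lists) were chosen with earlier results of these data known. Genes are named if they are members, induced factors, called members of a list (with none called, up to 4 passing the filter with the largest differences), the 5 measured neighbours of Prmt8 on each side, or the 5 genes nearest to it; the text marks the exceptions. All 8 member gene identifiers matched the reference table of GRCm38.p6, used for names and gene order. Alternatives were other filters, a 1.5-fold threshold, quantile normalization, a loess trend removed, an offset of 32, the brightest probeset, and probesets of several genes included. The software was matplotlib 3.10.9, statsmodels 0.14.6, pandas 2.3.3, NumPy 2.4.6 and Python 3.11.15.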

Additional observations from a re-analysis of the deposited data

How the results depend on the processing

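No paired analysis was possible because each group has 1 array. The difference of Prmt8 was -1.76 with quantile normalization, -1.83 with a loess trend removed and -1.30 with the offset of 32. The number of members called was 0 with the filter at the 75th percentile and 0 when both values had to reach the filter, because Prmt8 then failed the filter, and it was 1 under the other 7 alternatives. The number of genes called, 189, became 115 with the offset, 109 with the filter at the 75th percentile and 788 at 1.5-fold, where Prmt8 was still the only member called. Quantile normalization gave 114 genes higher and 72 lower, against 103 and 86 as deposited. The median of the members ran from -0.07 to -0.05. Of the called genes of the lists, Sox2 (-0.996), Ddah2 (0.98), Otx2 (-0.95) and Neurod1 (-0.94) were under 2-fold with the offset, and Dppa2 (-0.75) with the brightest probeset. Otx2 was also lost when both values had to reach the filter. The neural list's median was -0.13 over members with both values at the filter, and the fibroblast and feeder list's was -0.22 over members passing the 75th percentile. For the trophectoderm and endoderm list, these 2 filters gave medians of 0.08 and 1.36, against -0.13 over all its measured members. The number of arrays limits every value, and signal near background limits those of Prmt8, Prmt6 and Prmt2.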
